A study of Mus musculus with 4 samples.

Results

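The genes that load peptides onto MHC class I molecules and bring them to the cell surface were followed through 4 single-cell RNA-seq libraries of mouse lung. The set holds 10 genes, taken by symbol: the heavy chains H2-K1 and H2-D1, the light chain B2m, the peptide transporter Tap1 and Tap2, tapasin (Tapbp), the immunoproteasome subunits Psmb8, Psmb9 and Psmb10, and the transactivator Nlrc5. Each symbol matched 1 row, so all 10 of the 31253 genes in the matrices were found. They were taken as genes of one pathway and not by a threshold on their values, although earlier results of these data were known. The 4 libraries came from Vegfr2Y949F mice (libraries A and B) and from WT mice (libraries A and B), all on the C57BL/6J background, with 2 animals contributing lungs to every library. Vegfr2Y949F mice carry a point mutation in Vegfr2 (Kdr), the main receptor for VEGF-A on endothelium, which replaces a tyrosine phosphorylation site that takes part in the control of vessel permeability. Both genotypes were 6 to 8 weeks old when exposure began and had spent 6 weeks in hypoxia. A hypoxic lung is therefore common to both groups, and no normoxic library was analysed here. The labels name an A set and a B set in both genotypes without saying what a set shares, and the sex of the animals is not stated. Animals pooled within a library cannot be separated, so the tests measure the spread between 2 pools in each genotype.

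MHC class I molecules show fragments of a cell's own proteins to CD8 T cells and also engage receptors on natural killer cells. The proteasome cuts the proteins, the Tap1-Tap2 transporter pumps the peptides into the endoplasmic reticulum, tapasin helps an empty heavy chain bound to B2m to take one up, and the loaded complex travels to the surface. Interferon gamma raises most genes of the pathway and adds the immunoproteasome subunits Psmb8, Psmb9 and Psmb10, which take the places of the constitutive catalytic subunits Psmb5, Psmb6 and Psmb7. Nlrc5 is a coactivator without a DNA-binding domain of its own that works through the factors assembled on a conserved promoter module, in which the X2 box binds CREB and ATF factors and the Y box binds NF-Y. In the lung, endothelial cells line the capillaries through which circulating T cells pass and are known to carry class I molecules.

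The promoter stretches of both heavy chains, the light chain and Tap1 are shown because they let the shared module be seen beside the levels that follow. Promoter sequences were taken from RefSeq on GRCm38.p6 and run 5′ to 3′ on the strand of the gene. Capitals mark 3 searched words: TTTCACTTC, which is the opposite-strand form of the interferon response element-like word GAANNGAAA, TGACG, the core of the X2 box, and ATTGG, the core of the Y box.
H2-K1 (chr17:34000348-34000467, minus strand): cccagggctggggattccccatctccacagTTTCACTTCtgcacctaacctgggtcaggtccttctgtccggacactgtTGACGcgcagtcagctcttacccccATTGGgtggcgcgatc
H2-D1 (chr17:35262914-35263033, plus strand): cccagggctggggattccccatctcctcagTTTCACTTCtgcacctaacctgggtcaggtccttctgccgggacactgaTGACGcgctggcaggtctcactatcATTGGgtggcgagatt
B2m (chr2:122147530-122147649, plus strand): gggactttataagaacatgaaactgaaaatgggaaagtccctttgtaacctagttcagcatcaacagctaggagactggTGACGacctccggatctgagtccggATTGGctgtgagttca
Tap1 (chr17:34187391-34187510, plus strand): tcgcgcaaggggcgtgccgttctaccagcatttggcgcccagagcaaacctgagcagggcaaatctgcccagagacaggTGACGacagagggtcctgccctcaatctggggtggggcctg

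The H2-K1 and H2-D1 stretches were identical at 107 of 120 bases, whereas B2m, which lies on another chromosome, matched H2-K1 at 47 of 120 and H2-D1 at 46 of 120. In all 3 of these genes TGACG was followed by ATTGG after exactly 20 bases on the same strand. This arrangement, which was picked after these promoters had been read, occurred on either strand in the promoter windows of 27 of 27025 genes (0.0999%), each window running from 250 bases before to 50 bases after a start. Windows were available for 8 of the 10 genes, not for Tap2 or Nlrc5, and the arrangement was found in 3 of those 8. The nonclassical heavy chain H2-M3 was another of the 27. The short words on their own were common: TGACG was in the windows of 23.05% of genes and of 5 of the 8 (H2-K1, H2-D1, B2m, Tap1 and Psmb9), and ATTGG in 41.1% of genes and 6 of the 8. GAANNGAAA was in 8.68% of genes and, among the 8, in H2-K1 and H2-D1. The B2m stretch holds gaaactgaaa, a wider spacing of the same parts that this word does not match. Its absence from the count therefore does not show that B2m lacks an interferon response element. The Tap1 and Psmb9 windows share 275 of their 300 bases, because both genes are transcribed from one stretch in opposite directions, so their words are not separate observations. On mm10, 7 of the 10 genes lie on chromosome 17 inside the MHC, with Psmb9 (chr17:34181987-34187764), Tap1 (chr17:34187553-34197225), Psmb8 (chr17:34197721-34201454) and Tap2 (chr17:34203527-34216321) side by side. H2-D1 (chr17:35262730-35267499) is farther along, Tapbp (chr17:33915899-33929292) and H2-K1 (chr17:33996017-34000347) lie before them, B2m is on chromosome 2, and Psmb10 and Nlrc5 are on chromosome 8.

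The libraries held 15160 and 11992 barcodes (Vegfr2Y949F A and B) and 13567 and 12568 barcodes (WT A and B), with 83606389 to 96521589 unique molecular identifiers (UMIs, each standing for 1 captured transcript). After filtering, 41248 cells remained, of which 37189 fell into 26 cell types rebuilt from marker genes, and 4059 stayed unnamed. A type name means that a cluster resembles that type by its markers, and names rebuilt in this way can differ from those of the study. Endothelial types made up 22871 cells, mesenchymal 5027, myeloid 4926, lymphoid 2014 and epithelial 1942, and the lymphoid cells of WT A numbered only 124. Pairs of libraries shared 43 to 70 barcodes. Kdr stood at 489 and 447 counts per 1000000 UMIs (CPM) in endothelial cells of the Vegfr2Y949F libraries and at 467 and 381 CPM in those of the WT libraries, a count that cannot show a point mutation. Defining endothelial transcripts (Pecam1, Cdh5, Cldn5, Tie1 and Egfl7) were not confined to endothelial clusters: summed, they stood at 28.2% to 36.7% of the endothelial level in alveolar type 1-like cells and at 94.6% to 104% of it in a small cluster led by platelet markers, which is called the platelet-marker cluster here. The part of such RNA in the levels below was not tested beyond the values given.

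By CPM, and among the 17 cell types with at least 20 cells in every library, blood vessel endothelium stood high for most genes of the set. UMIs of the 10 genes together made up 1.14% ± 0.015 of all UMIs in general capillary-like cells (mean ± SD over 4 libraries throughout this paragraph), 1.12% ± 0.063 in the platelet-marker cluster, 1.10% ± 0.012 in aerocyte-like cells, which are the large capillary cells of gas exchange, 1.02% ± 0.057 in venous and 0.872% ± 0.064 in arterial endothelial-like cells. Lymphatic endothelial-like cells were lower at 0.452% ± 0.045. T cell-like clusters stood at 0.739% ± 0.057, neutrophil-like cells at 0.613% ± 0.112 and alveolar fibroblast-like cells at 0.259% ± 0.014, and secretory club-like cells stood at 0.0809% ± 0.032. B2m alone supplied 0.419 percentage points of the general capillary share. These shares depend on what else a cell makes: Scgb1a1, the club cell secretory protein, took 59.2% of all UMIs in club-like cells, and the 10 most abundant genes took 25.2% in neutrophil-like cells, against 6.99% in general capillary-like cells. Scaling with TMM factors, which correct for such dominant genes, multiplied the club and neutrophil levels relative to the library totals by more than in any other type, the mean factors being 0.389 and 0.419.

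**Figure D1:**
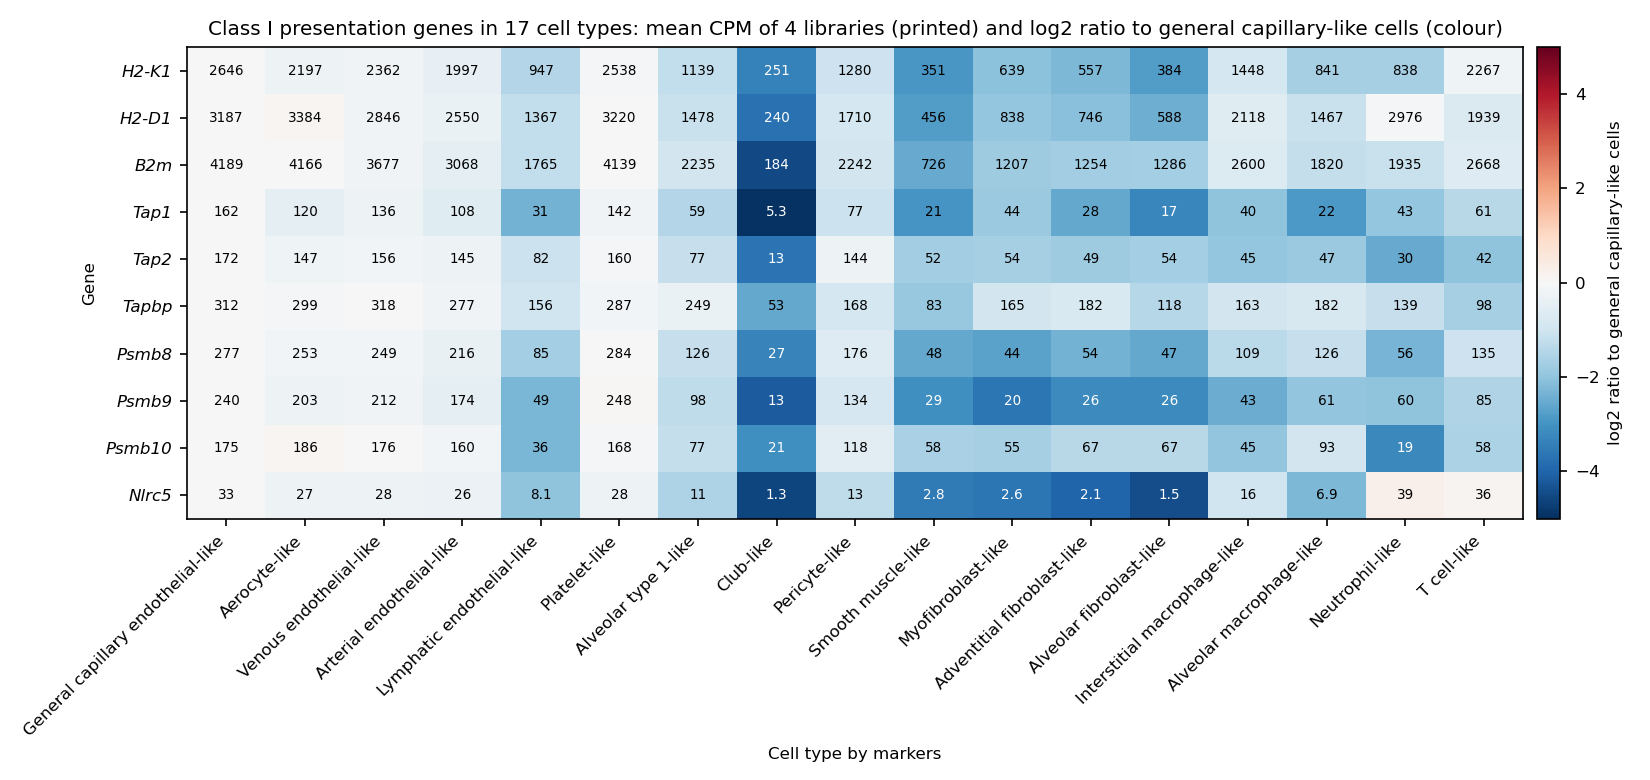
Mean CPM over 4 libraries (printed in each cell) for the 10 genes (rows) in 17 cell types with at least 20 cells in every library (columns), coloured by the log2 ratio to general capillary-like cells. Blood endothelial columns and the platelet-marker column (platelet-like) are pale in every row, club-like cells are the darkest with 184 CPM of B2m, and neutrophil-like cells are high for H2-D1 and Nlrc5 and low for Psmb10. With TMM scaling, the number of genes whose highest level lies in a blood endothelial type or the platelet-marker cluster is 5 in place of 9.

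Among the heavy chains, H2-K1 was highest by CPM within the 17 types in general capillary-like cells at 2646 ± 186 CPM, followed by the platelet-marker cluster at 2538 ± 98.7 and venous cells at 2362 ± 69.7 CPM (SD, n = 4 libraries). T cell-like cells reached 2267 ± 235 CPM of H2-K1, and neutrophil-like cells 838 ± 288. With TMM scaling T cell-like cells led with 2501 CPM of H2-K1. H2-D1 ran otherwise in neutrophil-like cells, at 2976 ± 676 CPM beside 3384 ± 502 in aerocyte-like and 3187 ± 480 in general capillary-like cells. H2-K1 therefore made up 21.8% ± 3.7 of the UMIs of both heavy chains in neutrophil-like cells, 45.6% ± 2.2 in general capillary-like cells, 39.6% ± 3.2 in aerocyte-like cells and 54.2% ± 3.4 in T cell-like cells. The ratio is taken between UMIs at the 3′ ends of 2 transcripts, so it compares cell types and not the amounts of the 2 proteins. No 90-base window in the last 500 bases of any of the 10 transcripts recurred in another transcript, so reads near the ends of these genes were not shared with a close copy at that length.

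B2m, the light chain that every class I heavy chain needs, reached 4189 ± 652 CPM in general capillary-like cells and 4166 ± 561 in aerocyte-like cells, against 2668 ± 263 in T cell-like cells, 1935 ± 306 in neutrophil-like cells and 1286 ± 120 in alveolar fibroblast-like cells. Club-like cells held 184 ± 138 CPM, a ratio of 22.8 between the highest and the lowest type, which is 10.3 with TMM scaling. The transporter genes had steeper and shallower ranges. Tap1 stood at 162 ± 14.4 CPM in general capillary-like cells and at 16.9 ± 1.5 in alveolar fibroblast-like cells, while Tap2 stood at 172 ± 6.4 and 53.6 ± 5.6 CPM in the same types. Tap2 was also high in pericyte-like cells at 144 ± 10.4 CPM, apart from the next lower type in every library, and those cells carried endothelial RNA at 13.7% to 70.5% of the endothelial level. Tapbp had the narrowest range by CPM, with 318 ± 87.2 CPM in venous cells and 52.9 ± 17.8 in club-like cells, a ratio of 6.01, whereas with TMM scaling the ratio was 5.19 for Tapbp and 4.56 for Tap2.

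The immunoproteasome subunits followed the capillaries closely. Psmb8 stood at 277 ± 20.6 CPM, Psmb9 at 240 ± 25.3 and Psmb10 at 175 ± 5.3 in general capillary-like cells, and the platelet-marker cluster, with its endothelial RNA, differed from these levels by less than its own SD for all 3. In alveolar fibroblast-like cells the same genes stood at 47.1 ± 3.5, 26.3 ± 0.81 and 66.96 ± 5.8 CPM. Neutrophil-like cells had the lowest Psmb10 of the 17 types by CPM, at 18.5 ± 4.9, whereas with TMM scaling lymphatic endothelial-like cells did. Nlrc5 was the exception to the endothelial order: neutrophil-like cells led at 38.5 ± 8.3 CPM, ahead of T cell-like cells at 35.8 ± 7.6 and general capillary-like cells at 32.7 ± 11.1 CPM, and these 3 overlapped. With TMM scaling the same types stood at 92.8 ± 21.6, 38.8 ± 5.0 and 29.2 ± 9.4 CPM. Alveolar fibroblast-like cells had 1.52 ± 0.51 CPM of Nlrc5 and club-like cells 1.34 ± 1.2.

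Most neighbours in the order of types were not apart from each other. Of the 16 steps between neighbouring types, the 4 libraries of the upper type all exceeded those of the lower type at 4 steps for H2-K1, at 2 for Tap2, at 1 each for H2-D1, B2m, Tap1, Psmb8 and Psmb10, and at 0 for Tapbp, Psmb9 and Nlrc5. By CPM, 9 of the 10 genes were highest in a blood endothelial type or in the platelet-marker cluster, and 9 were lowest in club-like cells. With TMM scaling those counts were 5 and 3: T cell-like cells then led for H2-K1, and neutrophil-like cells led for H2-D1, B2m, Tapbp and Nlrc5. General capillary-like cells were on top for Tap1 and Tap2, and aerocyte-like cells for Psmb10, under both scalings. For Psmb8 and Psmb9 the platelet-marker cluster was on top by CPM and general capillary-like cells with TMM scaling.

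Over the 17 types the 10 genes moved together. All 45 pairwise Pearson correlations of log2(CPM + 1) means were above 0, with a median of 0.85, a lowest value of 0.40 between Psmb10 and Nlrc5 and a highest of 0.97. The types share libraries, depth and stray endothelial RNA. Scgb1a1 took 59.2% of UMIs in club-like cells, which lowers the CPM of other genes there. The same correlations over all pairs of genes were not computed, so these values are a description only. Among 6494 other genes averaging at least 20 CPM over the types, the pattern most like the mean of the set was that of H2-T23 (r = 0.96 over 17 types), the mouse Qa-1 heavy chain. It was followed by Rapgef1, H2-Q6, Gbp4, Ppp4r1, Pitpnc1, Cmtm6, Anp32a, Ttyh3 and Parp14 (r = 0.93), of which H2-Q6 is a nonclassical heavy chain and Gbp4 an interferon-induced GTPase. H2-Q6 shares windows near its 3′ end with H2-Q4, so its counts are less certain.

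Against epithelial and mesenchymal cells, endothelial cells were higher for the whole set. Library sums per lineage were compared with edgeR's quasi-likelihood test with TMM scaling over 14711 genes, with the library as a block and Benjamini-Hochberg adjustment. All 10 genes passed as higher in endothelial than in epithelial cells, where 30.7% of all genes tested did so, and all 10 as higher in endothelial than in mesenchymal cells, where 28.3% did. As lower, 0 of the 10 passed, where 29.6% of all genes did against epithelial and 29.4% against mesenchymal cells. The differences ran from 0.62 ± 0.10 on the log2 scale for Tapbp (SE, adjusted p = 4.72e-05) to 1.90 ± 0.30 for Nlrc5 (adjusted p = 2.49e-05) against epithelial cells, with a median of 1.39 beside 0.05 over all genes. Against mesenchymal cells they ran from 1.05 ± 0.10 for Tapbp to 2.58 ± 0.29 for Nlrc5, with a median of 1.68 beside 0.00. As levels, H2-D1 had 3135 ± 436 CPM in endothelial cells against 1029 ± 148 in epithelial and 932 ± 152 in mesenchymal cells (SD, n = 4), and B2m had 4030 ± 652 against 1372 ± 183 and 1586 ± 489 CPM. Every library was higher in the endothelium for each of the 10 genes in both comparisons.

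Against myeloid cells the set was split, and the split depended on scaling. Tap1 (log2 difference 0.92 ± 0.17), Tap2 (1.31 ± 0.12), Psmb9 (0.94 ± 0.22) and Psmb10 (0.88 ± 0.12) passed as higher in endothelial than in myeloid cells, 4 genes of 10 where 33.3% of all genes did. H2-D1 passed as lower at −0.46 ± 0.16 (adjusted p = 0.0145), 1 of 10 where 35.1% did, although its CPM was 3135 ± 436 in endothelial and 2549 ± 491 in myeloid cells and higher in the endothelium of every library. With library totals in place of TMM factors, H2-D1 turned to 0.30, 8 of the 10 genes passed as higher and 0 as lower, and the median over all genes was 0.70 on the log2 scale in place of −0.02, with higher genes making up 71.4% of calls in place of 48.7%. Neutrophil-like cells were 3413 of the 4926 myeloid cells.

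Against lymphoid cells, 7 of the 10 genes passed as higher in the endothelium, where 30.6% of all genes did, and 0 of the 10 as lower, where 30.3% did. Tap2 (1.23 ± 0.12), Psmb10 (1.07 ± 0.13) and Tapbp (1.01 ± 0.11) differed most on the log2 scale, and B2m (0.34 ± 0.13, adjusted p = 0.0322) least among those that passed. Whichever library was left out, 5 to 6 genes passed: B2m lost the call each time (log2 difference 0.27 to 0.35), and Psmb8 lost it without Vegfr2Y949F library A and without either WT library. B2m also missed the threshold with RLE factors and with stricter cell filters, and Psmb8 with stricter cell filters. H2-K1 (−0.11 ± 0.19, adjusted p = 0.630; 0.09 by library totals), H2-D1 (0.34 ± 0.16, adjusted p = 0.0696) and Nlrc5 (−0.41 ± 0.27, adjusted p = 0.215) did not pass. H2-K1 had 2449 ± 118 CPM in endothelial and 2294 ± 151 in lymphoid cells. The lymphoid sums carried endothelial RNA at 1800 and 657 CPM in the Vegfr2Y949F libraries and 1793 and 448 CPM in the WT libraries, against 6983 to 7790 CPM in the endothelium.

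**Figure D2:**
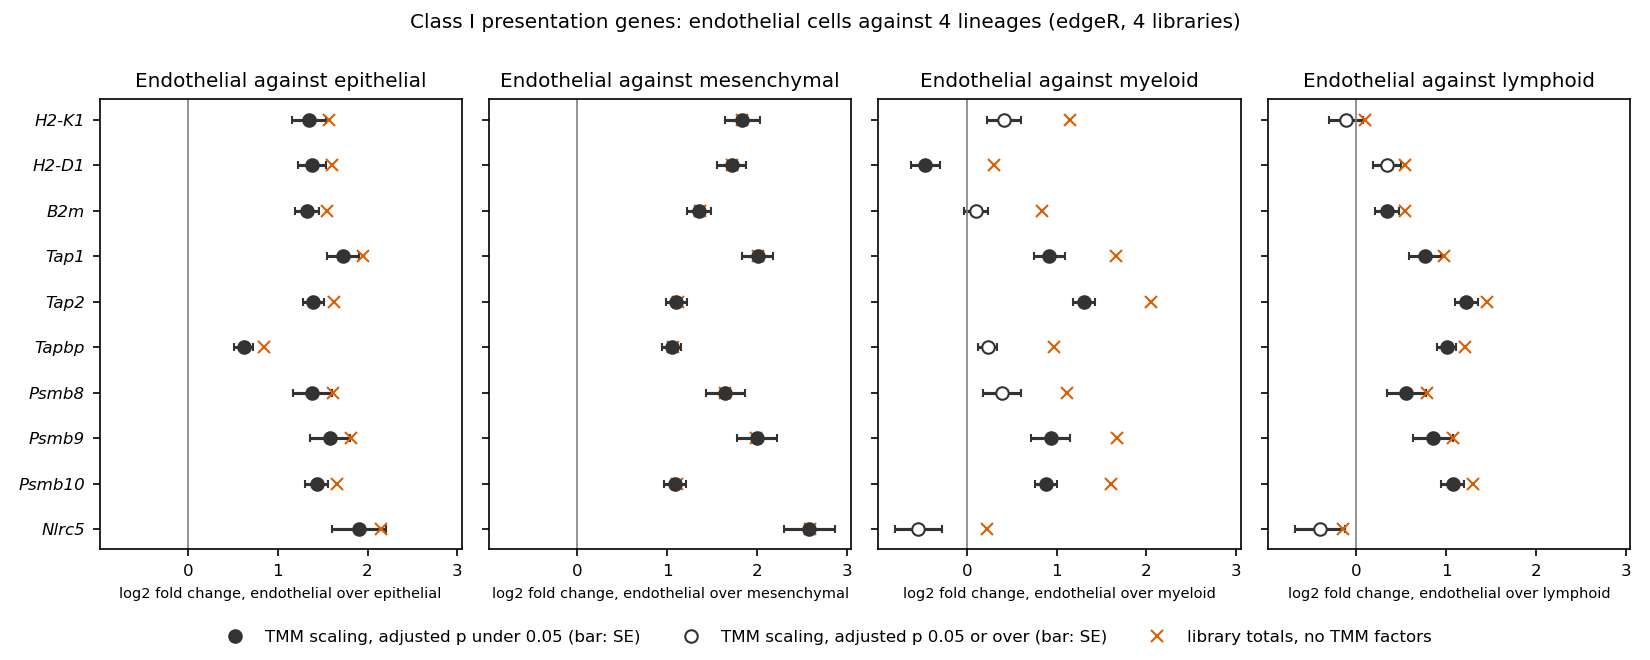
Log2 fold change (x axis) of each of the 10 genes (y axis) in endothelial cells over 4 other lineages, 1 per panel, from edgeR fits over 4 libraries. Filled circles passed at adjusted p under 0.05 with TMM scaling, open circles did not, bars are SE, and crosses give the same fits with library totals, under which H2-D1 against myeloid cells lies at 0.30 in place of −0.46.

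The neighbours of the pathway are given beside the shares of all genes, which were 30.7% higher and 29.6% lower against epithelial cells, 28.3% and 29.4% against mesenchymal, 33.3% and 35.1% against myeloid and 30.6% and 30.3% against lymphoid cells. Of the constitutive proteasome subunits, 0 of 11 were higher and 2 lower in endothelial than in epithelial cells (Psmb5 at −0.64 and Psmb6 at −0.35 on the log2 scale), 1 higher than in mesenchymal cells, 3 lower than in myeloid cells and 1 lower than in lymphoid cells. Of the nonclassical heavy chains 9 of 13 were higher than in epithelial cells, among them H2-T24 (1.99), Cd1d1 (1.90) and H2-Q6 (1.89), and 1 lower, H2-Q2 (−5.63), which had 0.107 ± 0.12 CPM in endothelial and 4.87 ± 1.2 in epithelial cells. Against myeloid cells 7 of the 13 were higher and 3 lower, and against lymphoid cells 6 were higher and 1 lower. Of the loading and trimming genes of the endoplasmic reticulum, 3 of 8 were higher and 2 lower than in epithelial cells, with the tapasin relative Tapbpl at 0.74, the peptide-trimming peptidase Erap1 at 0.67 and the transport protein Bcap31 at −0.73. Psme1 and Psme2, which form the interferon-inducible proteasome cap PA28, were higher in endothelial than in epithelial cells (0.74 and 0.52) and mesenchymal cells (1.19 and 0.68), whereas the nuclear cap Psme3 was lower in both (−0.67 and −0.30). Of 16 transcriptional regulators, 13 were higher than in epithelial cells and 7 higher and 4 lower than in myeloid cells. Irf1, an activator of class I genes, stood at 738 ± 192 CPM in endothelial against 172 ± 28.6 in epithelial, 319 ± 66.9 in mesenchymal, 145 ± 26.9 in myeloid and 224 ± 37.9 CPM in lymphoid cells, and passed in all 4 comparisons. Ciita, the class II transactivator and a relative of Nlrc5, stood at 59.8 ± 27.8 CPM in endothelial cells and at 8.66 ± 2.6 to 19.3 ± 12.9 CPM in the other lineages and also passed in all 4.

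The balance between immunoproteasome and constitutive subunits can be read inside a cell type without any scaling between types, as the share that an inducible subunit has in the UMIs of the pair it forms with the subunit it replaces. In general capillary-like cells Psmb8 made up 75.1% ± 1.0 of Psmb8 plus Psmb5, Psmb9 65.4% ± 5.7 of Psmb9 plus Psmb6, and Psmb10 65.3% ± 2.7 of Psmb10 plus Psmb7 (SD, n = 4). In alveolar fibroblast-like cells the same shares were 26.2% ± 1.1, 14.0% ± 1.8 and 45.6% ± 1.6. In every library the 4 blood endothelial types were above the alveolar fibroblast-like cells for all 3 subunits. Immune cells were not uniform: the Psmb8 share was 62.9% ± 5.8 in T cell-like and 62.4% ± 3.6 in interstitial macrophage-like cells but 37.4% ± 5.7 in neutrophil-like cells, where the Psmb9 share was 57.7% ± 4.7 and the Psmb10 share 30.8% ± 8.8. The neutrophil Psmb9 share went with a low partner, Psmb6 at 42.9 ± 5.1 CPM against 127 ± 18.7 in general capillary-like cells. The shares compare UMIs of different transcripts, so a value of 50% is not equal protein.

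**Figure D3:**
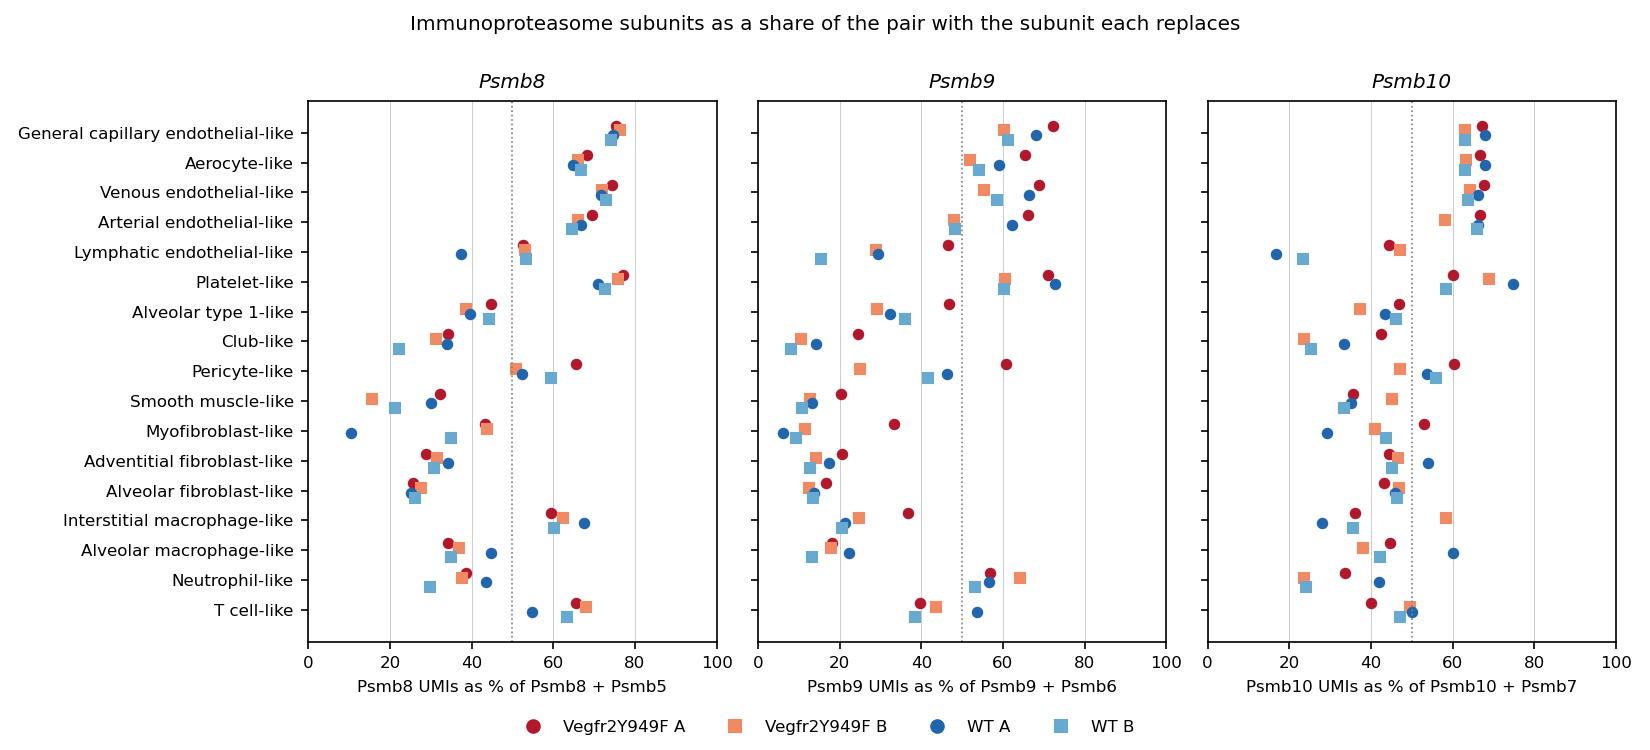
UMIs of Psmb8, Psmb9 and Psmb10 (panels, left to right) as a percentage of their pair with Psmb5, Psmb6 and Psmb7 (x axis) in 17 cell types (y axis), with 1 point per library, Vegfr2Y949F in red and orange and WT in blue. Blood endothelial types lie at the right, for example 74.1% to 76.4% for Psmb8 in general capillary-like cells, fibroblasts and smooth muscle at the left, and pericyte-like cells spread between libraries. In the Psmb10 panel neutrophil-like cells lie, on average, farther left than alveolar fibroblast-like cells.

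Between genotypes, no gene of the set differed beyond the spread of the libraries in endothelial cells. The heavy chain H2-K1 stood at 2284 and 2547 CPM in the Vegfr2Y949F libraries (A, then B) and at 2445 and 2520 CPM in the WT libraries. H2-D1 stood at 2508 and 3395 CPM in Vegfr2Y949F and at 3174 and 3465 CPM in WT, and B2m at 4902 and 3547 CPM against 4159 and 3512 CPM. In all 3 genes the 2 mutant libraries lay farther from each other than the genotype means did. The log2 fold changes of Vegfr2Y949F over WT were −0.10 ± 0.21 for H2-K1, −0.22 ± 0.26 for H2-D1 and 0.07 ± 0.23 for B2m (SE).

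The transporter, tapasin and transactivator genes behaved alike. Tap1 had 167 and 138 CPM in Vegfr2Y949F against 139 and 134 CPM in WT, and Tap2 had 172 and 153 CPM against 162 and 159 CPM. Tapbp had 401 and 262 CPM in Vegfr2Y949F against 318 and 239 CPM in WT, and Nlrc5 had 45.2 and 21.6 CPM against 30.9 and 23.1 CPM. For these 4 genes the highest value belonged to mutant library A, and the groups overlapped in each. Their log2 fold changes were 0.09 ± 0.14, −0.04 ± 0.14, 0.18 ± 0.24 and 0.23 ± 0.32 in that order.

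The immunoproteasome subunits were level. Psmb8 had 242 and 279 CPM in Vegfr2Y949F against 271 and 259 CPM in WT, Psmb9 had 249 and 196 CPM against 241 and 201 CPM, and Psmb10 had 174 and 175 CPM against 183 and 167 CPM. The log2 fold changes were −0.08 ± 0.17, −0.06 ± 0.17 and −0.06 ± 0.14. For all 10 genes edgeR's quasi-likelihood adjusted p was 1.00, and the median of the set was −0.05 beside −0.01 over all genes. That test called 0 of 14126 genes in endothelial cells (0%), and DESeq2 called 9 genes, none of the 10 among them. In the edgeR test 141 genes (0.998%) had an unadjusted p under 0.05, again none of the 10. Uniform p values would put a share of 0.05 there, so the test was cautious in these sums. It has no block, so differences between A and B libraries count as spread. With 2 libraries a genotype the smallest p of an exact permutation test is 0.33, and a p of this size does not show that the levels are equal. General capillary cells of a cluster led by Plvap and Esm1 numbered 585 and 755 in the Vegfr2Y949F libraries against 55 and 64 in WT, and without that cluster the median of the set was −0.05 again.

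**Figure D4:**
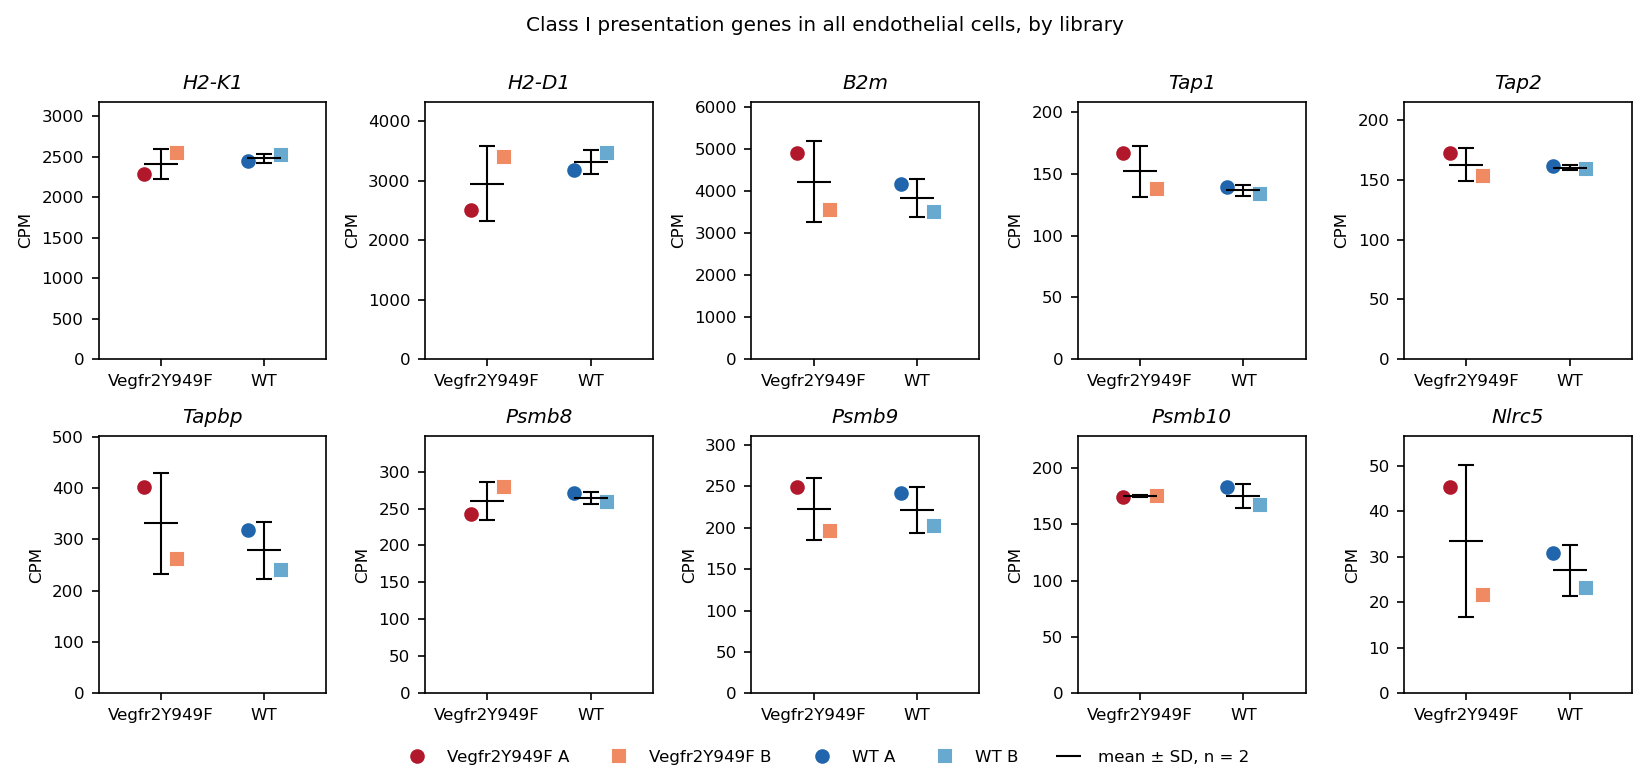
CPM (y axis) of each of the 10 genes (panels) in all endothelial cells of the 2 Vegfr2Y949F libraries (red, orange) and the 2 WT libraries (dark and light blue), with bars for mean ± SD (n = 2). The genotypes overlap in every panel, and library A (circles) is above library B (squares) in both genotypes for B2m, Tap1, Tap2, Tapbp, Psmb9 and Nlrc5.

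Both libraries of one genotype lay above or below both of the other for 0 of the 10 genes, where 14.7% of all genes were above and 7.03% below in Vegfr2Y949F. In both genotypes library A was above library B for B2m, Tap1, Tap2, Tapbp, Psmb9 and Nlrc5, so that both A libraries exceeded both B libraries for 6 of the 10 genes, where 36.6% of all genes did so, and H2-K1 and H2-D1 were the other way round, 2 of the 10 where 23.3% of all genes were. Within the A libraries the log2 ratio of Vegfr2Y949F over WT (with 1 CPM added) was −0.10 for H2-K1, −0.34 for H2-D1, 0.24 for B2m, 0.33 for Tapbp and 0.53 for Nlrc5. Within the B libraries it was 0.02, −0.03, 0.01, 0.13 and −0.09 for the same genes. What the libraries of a set have in common was not tested.

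The subunit shares within endothelial cells differed little between genotypes. Psmb8 made up 72.7% and 72.8% of its pair in Vegfr2Y949F and 71.6% and 71.5% in WT, a difference of 1.18 percentage points in which both mutant libraries were above both WT libraries (exact permutation p = 0.33, two-sided, the smallest possible). Psmb9 stood at 69.7% and 56.9% against 65.5% and 58.2% (exact permutation p = 1.00) and Psmb10 at 66.98% and 62.8% against 67.6% and 62.9% (exact permutation p = 0.667). H2-K1 made up 47.7% and 42.9% of both heavy chains in Vegfr2Y949F against 43.5% and 42.1% in WT (exact permutation p = 0.667).

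In the other 4 lineages edgeR called 0 genes between genotypes (0% of 10271 to 13093 tested), while 181, 48, 65 and 70 had an unadjusted p under 0.05 in epithelial, mesenchymal, myeloid and lymphoid cells, and DESeq2 called 5, 0, 2 and 0. None of the 10 genes was among the genes at an unadjusted p under 0.05 or those DESeq2 called. The median log2 fold change of the set was −0.02 in epithelial, 0.16 in mesenchymal, 0.18 in myeloid and 0.17 in lymphoid cells, beside −0.01, 0.00, −0.03 and 0.00 over all genes. In myeloid cells 3 genes had both Vegfr2Y949F libraries above both WT libraries, where 8.33% of all genes did: Tap1 with 46.2 and 68.8 CPM against 37.9 and 31.4 CPM, B2m with 2167 and 2832 against 1988 and 1900 CPM, and Tapbp with 163 and 159 against 139 and 144 CPM. Tap1 had the largest of these differences, 0.64 ± 0.34 on the log2 scale (edgeR unadjusted p = 0.114, adjusted p = 1.00). Myeloid sums mix cell types in different proportions. Neutrophil-like cells were 1898 of 2293 and 380 of 856 cells in the Vegfr2Y949F libraries, and 630 of 761 and 505 of 1016 in WT. The defining markers of immune cells, among them S100a8 and S100a9, summed to 69326 and 25851 CPM in Vegfr2Y949F against 58176 and 36037 CPM in WT. This sum was lowest in the mutant library with the highest B2m and Tap1. The part of these proportions in the differences was not tested.

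In lymphoid cells both heavy chains were lower in both Vegfr2Y949F libraries, where 8.13% of all genes were: H2-K1 with 2126 and 2227 CPM against 2348 and 2475 CPM in WT, and H2-D1 with 1707 and 2231 against 2321 and 2322 CPM. Tap2 (66.6 and 66.7 against 54.3 and 48.5 CPM), Psmb9 (124 and 118 against 93.3 and 83.8 CPM) and Psmb10 (72.4 and 77.9 against 69.5 and 65.9 CPM) were above both WT libraries, where 12.8% of all genes were. Tap1, Tapbp and Psmb8 overlapped WT there, and the log2 fold changes, −0.21 ± 0.29 for H2-K1, −0.29 ± 0.32 for H2-D1, 0.32 ± 0.28 for Tap2 and 0.40 ± 0.27 for Psmb9, were all within 2 SE of 0. Lymphoid sums also mix cell types in different proportions. Innate lymphoid 2-like cells were 19 of 364 and 44 of 618 cells in the Vegfr2Y949F libraries, and 42 of 124 and 68 of 908 in WT. Natural killer-like cells were 35 and 32 cells in Vegfr2Y949F against 5 and 48 in WT. The part of these proportions in the lymphoid differences was not tested. In epithelial cells H2-K1 alone was separate, with 720 and 829 CPM in Vegfr2Y949F against 864 and 874 in WT, where 10.1% of all genes were lower in both mutant libraries. Immune defining transcripts in the epithelial sums stood at 304 and 131 CPM in Vegfr2Y949F against 19.8 and 78.0 CPM in WT. The part of this RNA in the epithelial levels was not tested.

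None of the 10 genes was above or below both WT libraries in mesenchymal cells, where 10.9% and 7.47% of all genes were. The Vegfr2Y949F libraries lay on either side of WT there for Psmb9 and B2m. Psmb9 stood at 101 and 29.3 CPM in the Vegfr2Y949F libraries against 49.4 and 51.6 CPM in WT, and B2m at 2314 and 1254 against 1372 and 1406 CPM. Endothelial defining transcripts in the same sums stood at 2349 and 245 CPM in Vegfr2Y949F against 982 and 1233 CPM in WT, with all 5 of the 5 markers detected, so that the mutant libraries bracket WT in the same order as for Psmb9. Without library A of the mutant, Psmb9 had a log2 fold change of −0.75 (edgeR adjusted p = 0.0496), and without library B of the mutant it had 0.89 and passed as well, so 1 library decided both the sign and the call. In pericyte-like cells endothelial RNA was 70.5% and 13.7% of the endothelial level in Vegfr2Y949F and 46.9% and 50.7% in WT, while the 10 genes took 0.828% and 0.386% of UMIs against 0.595% and 0.617%. The part of this RNA in these levels was not tested. In alveolar fibroblast-like cells, with endothelial RNA at 2.35% to 4.13%, the set took 0.261% and 0.273% in Vegfr2Y949F against 0.2404% and 0.261% in WT.

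**Figure D5:**
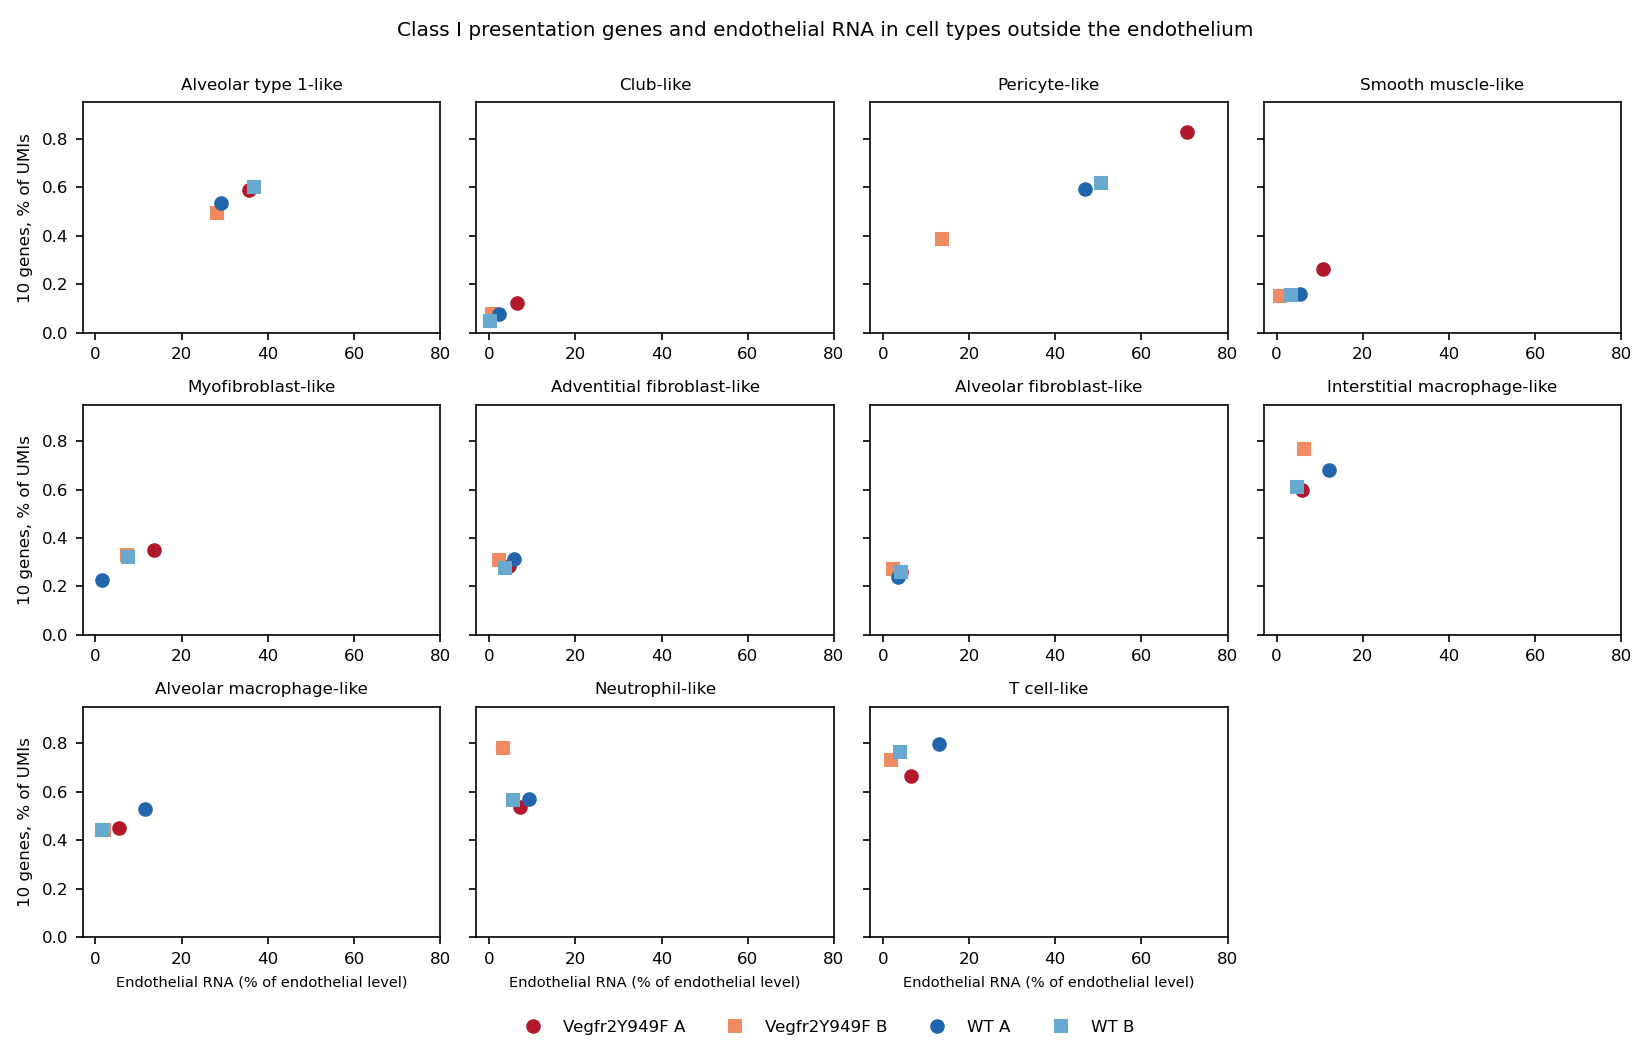
UMIs of the 10 genes as a percentage of all UMIs (y axis) against the summed endothelial transcripts Pecam1, Cdh5, Cldn5, Tie1 and Egfl7 as a percentage of their endothelial level (x axis), for 11 cell types outside the endothelium, with 1 point per library. Pericyte-like cells run from 13.7% and 0.386% in Vegfr2Y949F library B to 70.5% and 0.828% in Vegfr2Y949F library A, with both WT libraries between them, whereas alveolar and adventitial fibroblast-like cells stay close together at the left.

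Within single cell types, 160 tests of the 10 genes in 17 types gave 0 calls. Of their fold changes 92 were above 0 and 68 below, where 48.3% to 54.5% of all genes were above 0, depending on the type. Over all genes 6 tests passed, 2 each in alveolar fibroblast-like (0.0173% of genes), arterial endothelial-like (0.0206%) and club-like cells (0.0295%), and 0% of genes passed in the other 14 types. Of the 160 tests 3 had an edgeR unadjusted p under 0.05, where 0.299% to 3.70% of all genes did, depending on the type. They were B2m in club-like cells (380 and 146 CPM in Vegfr2Y949F against 153 and 56.7 CPM in WT, log2 fold change 1.19 ± 0.47), Psmb10 in lymphatic endothelial-like cells (36.4 and 71.5 against 9.76 and 24.6 CPM, 1.43 ± 0.55) and Nlrc5 in the platelet-marker cluster (56.3 and 21.5 against 20.2 and 13.2 CPM, 1.06 ± 0.44). The lymphatic Psmb10 values rest on 4 and 57 UMIs in Vegfr2Y949F against 1 and 23 in WT. The platelet-marker sums held 639522 to 1023813 UMIs a library over all genes, so the Nlrc5 values there also rest on few UMIs. In club-like cells endothelial RNA was 6.49% and 0.687% of the endothelial level in Vegfr2Y949F against 2.37% and 0.283% in WT, the same order of libraries as for B2m. With the set as a block, 1 of these tests passed, B2m in club-like cells (log2 fold change 1.17, edgeR adjusted p = 0.0201), which also passed with no filter on low counts (1.18) and without WT library A (1.85). Without Vegfr2Y949F library A, Psmb9 in pericyte-like cells (−1.0 in place of 0.03) and Psmb8 in T cell-like cells (1.11 in place of 0.61) passed.

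Whether the genotype difference itself varied between lineages was tested with an interaction term of genotype and lineage. None of the 10 genes passed in any of the 4 pairings of endothelial cells with another lineage (0% of all genes did), the smallest unadjusted p being 0.167 and the smallest edgeR adjusted p 1.00. The differences between fold changes, endothelial minus other, ran from −0.59 to 0.54 on the log2 scale with myeloid cells and from −0.21 to 0.00 with mesenchymal cells.

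Neighbouring lists of genes, in endothelial cells and between genotypes, gave 0 calls each. Of the nonclassical heavy chains 4 of 11 were higher in Vegfr2Y949F (median −0.04), with H2-T24 at 31.6 and 27.6 CPM against 23.8 and 23.8 CPM in WT. Among the constitutive proteasome subunits 1 of 11 was higher (median −0.13), among the loading genes 3 of 8, among the proteasome cap and assembly genes 3 of 7 and among the interferon receptors and kinases 6 of 8. Of the transcriptional regulators 11 of 16 were higher (median 0.07), with Rfx5, a subunit of the factor that binds the X1 box, at 8.27 and 5.85 CPM in Vegfr2Y949F against 5.59 and 5.38 CPM in WT.

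Class II genes and interferon response genes share regulators with class I, and no gene of either list passed the test. Of 7 class II genes 6 were lower in Vegfr2Y949F (median −0.38), 5 of them below both WT libraries, where 7.03% of all genes were. H2-Eb1, a class II beta chain, had 720 and 755 CPM in Vegfr2Y949F against 952 and 970 CPM in WT, and H2-DMb1, a subunit of the class II peptide editor, had 123 and 140 against 168 and 165 CPM. Of 21 interferon response genes 20 were higher in Vegfr2Y949F (median 0.37), 10 of them above both WT libraries, where 14.7% of all genes were. Ifi44 had 37.6 and 34.9 CPM in Vegfr2Y949F against 22.9 and 22.5 CPM in WT (log2 fold change 0.61 ± 0.13, edgeR unadjusted p = 0.00316, adjusted p = 1.00), and Rsad2, the antiviral enzyme viperin, had 48.9 and 33.5 against 26.0 and 20.5 CPM (0.76 ± 0.20). In the same sums the 10 class I genes had 4 fold changes above 0 and 6 below, and 0 of them were above or below both WT libraries. The cells behind these sums sit in different clusters, since the Plvap and Esm1 cluster came mostly from the mutant libraries. Without that cluster 6 of 7 class II genes were lower (median −0.29), 5 of them below both WT libraries, where 6.45% of all genes were, and 16 of 21 interferon response genes were higher (median 0.21), 7 of them above both WT libraries, where 13.8% were. Of the 10 class I genes 4 fold changes were then above 0 and 6 below, and 1 gene, H2-K1, was below both WT libraries. Immune defining transcripts in endothelial cells stood at 111 and 38.2 CPM in Vegfr2Y949F against 31.7 and 57.1 CPM in WT, and erythroid transcripts at 1150 and 1028 against 489 and 712 CPM.

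Within general capillary-like cells the levels also differed between clusters: mean Nlrc5 ran from 20.96 CPM in the Plvap and Esm1 cluster to 38.04 CPM in the largest cluster, Psmb9 from 202 to 322 CPM and H2-K1 from 2508 to 3370 CPM, with the highest Psmb9 and H2-K1 in a cluster of 145 cells led by Cenpf, Mki67 and Top2a. In the largest cluster (7049 cells, led by Mcf2l, Ciita and Cdk19) H2-K1 stood at 2572 and 2717 CPM in Vegfr2Y949F against 2748 and 2937 CPM in WT, and Nlrc5 at 60.2 and 27.2 against 38.6 and 26.2 CPM. In the Plvap and Esm1 cluster (1459 cells, also led by Ifit1) H2-K1 stood at 1711 and 3303 CPM in Vegfr2Y949F against 2399 and 2619 CPM in WT, with summed interferon response genes at 3664 and 6915 against 3359 and 4305 CPM. Summed class II genes in that cluster stood at 1992 and 3250 CPM in Vegfr2Y949F against 6782 and 7401 CPM in WT. In the largest cluster they overlapped, at 7586 and 10005 CPM in Vegfr2Y949F against 9696 and 10945 CPM in WT. The cluster of the mutant libraries thus had class II sums below both WT libraries while H2-K1 overlapped them. Its WT values rest on 55 and 64 cells, and the cluster led by Cenpf, Mki67 and Top2a held 12 cells in WT library B. Clusters were built from the same cells, so these levels are given as a description.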

How the data were processed

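Whole-lung cells of 4 mouse libraries were digested with collagenase and DNase, strained, cleared of red cells and captured on the 10x Genomics system, per the labels' protocols. The deposited matrices hold raw UMI counts per gene and barcode, made by the authors with Cell Ranger 6.1.1, per the file headers. The submitters' processing notes also name mm10, fastp, UMI-tools and Seurat 4.1.0, with no roles given, and filters applied before deposit are not given in the sources used here. The unit is counts, so no normalization by the authors bears on the values, and the totals are given in the report. Because UMIs mark transcript ends, levels were not divided by gene length.

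Cells with at least 500 genes, at least 1000 UMIs and under 15% mitochondrial UMIs were kept (scanpy 1.11.5). Scrublet's automatic cut marked 0 to 387 cells a library, which was taken as not working, so the 8% with the highest scores were removed from each library. Cells were clustered on 2000 variable genes (40 components, Leiden resolution 1.0) after some genes had been left out. The set, the compared pathway lists and Kdr, 105 genes in all, were left out so that their levels did not shape a cluster. Mitochondrial, ribosomal protein, haemoglobin and Y-linked genes, Xist and Tsix were left out as well. The endothelial and immune defining genes were not left out, nor were Scgb1a1, Plvap and Esm1. Clusters were named by marker lists, and 4059 cells were left unnamed. Endothelial sums include lymphatic cells and leave out the platelet-marker cluster.

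UMIs were summed per library and lineage, or per type with at least 20 cells in every library (17 types), and tested with edgeR 4.0.16 (TMM factors, filterByExpr, quasi-likelihood test, Benjamini-Hochberg over all genes, threshold 0.05). Genotypes were compared without a block, 2 libraries against 2, and lineages with the library as a block. The fits were tried on simulated counts with known changes in well-counted genes, a single dispersion and no difference between A and B libraries. Low counts and differences between A and B libraries were thus not covered. Alternatives were DESeq2 1.42.0, RLE factors, no filter on low counts, leaving out each library, the set label (A or B) as a block, stricter cells (1000 genes, 10% mitochondrial UMIs), doublets kept, cells with Ptprc UMIs removed, and 3 settings chosen after seeing the data: library totals without TMM factors, TMM-scaled type levels, and endothelium without the Plvap and Esm1 cluster.

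The genes of the set and all lists were chosen with earlier results of these data known. All 10 genes are named. Of other lists, genes are named that passed the test, at most 4 per list by absolute log2 fold change, or, where none passed, up to 2 with the smallest unadjusted p, and like-patterned genes are the 10 with the highest Pearson r among genes of at least 20 CPM. Intervals and SDs cover these libraries only.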

Additional observations from a re-analysis of the deposited data

Results flagged for a closer look

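In 6 of 50 values (10 genes in 5 lineages, 4 libraries each) 1 library stood far from the other 3 by Dixon's ratio of its gap to the whole range. The nominal rate for independent values is about 1 in 20. The 10 genes share the same library sums, so the 50 values are not independent. The share over all genes was not computed, so the count is not read as an excess. All 6 were Vegfr2Y949F libraries. Library A was low for H2-D1 in epithelial cells at 807 CPM, beside 1114 CPM in the other Vegfr2Y949F library and 1088 and 1107 CPM in WT. It was high for B2m in mesenchymal cells at 2314 CPM, beside 1254 CPM in the other Vegfr2Y949F library and 1372 and 1406 CPM in WT, and the same mesenchymal sum held the most endothelial RNA (2349 CPM, beside 245 CPM in the other Vegfr2Y949F library and 982 and 1233 CPM in WT). It was low for H2-D1 in lymphoid cells at 1707 CPM, beside 2231 CPM and 2321 and 2322 CPM in WT. It was high for Nlrc5 in lymphoid cells at 41.2 CPM, beside 27.0 CPM and 27.1 and 28.7 CPM in WT. Library B was high in myeloid cells for H2-K1 at 1726 CPM, beside 832 CPM in the other Vegfr2Y949F library and 939 and 959 CPM in WT. It was also high there for Tap2 at 48.8 CPM, beside 35.1 CPM and 35.3 and 36.6 CPM in WT.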

How the results depend on the processing

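The genes called between genotypes, 0 in each lineage, were 9 in endothelial, 5 in epithelial and 2 in myeloid cells with DESeq2, and 8, 85, 15 and 21 in endothelial, epithelial, myeloid and lymphoid cells with no filter on low counts. Leaving out each library gave 0 to 48 in endothelial, 1 to 34 in epithelial, 0 to 299 in mesenchymal, 0 to 14 in myeloid and 0 to 24 in lymphoid cells, where the lone library left in a genotype is assumed to vary like the others. Without cells holding Ptprc UMIs 1 gene was called in epithelial cells. Over the named types, 6 calls became 26 with DESeq2, 467 with no filter, 12 with doublets kept and 367 to 1113 with a library left out. Of the 10 genes, 0 to 2 were then called in mesenchymal cells and 0 to 2 over the types, and 1 over the types with no filter. Psmb9 in mesenchymal cells reversed to −0.75 without Vegfr2Y949F library A and was 0.89 without library B, passing in both. The cause was not tested. Of 560 alternative genotype values of the 10 genes over 5 lineages, 493 kept their sign and their side of the threshold. Their sizes were not compared. Another 64 changed sign without passing in either fit, and 1, the mesenchymal Psmb9 value without Vegfr2Y949F library A, changed sign to −0.75. The few others were mesenchymal values with a library left out, which kept their sign.

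The 5 genes called between endothelial and myeloid cells became 9 with doublets kept, 8 with library totals, under which H2-D1 reversed to 0.30, and 4 to 8 with a library left out, 8 of them without Vegfr2Y949F library B. The genes highest in blood endothelium or the platelet-marker cluster, 9 by CPM, were 5 with TMM factors. The factors differ between types by construction.

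With the set (A or B) as a block, 1 gene was called in endothelial, 1 in epithelial, 10 in myeloid and 57 in lymphoid cells, 413 over the named types and 1 of the 10 genes over the types. The labels name an A set and a B set in both genotypes without saying what a set shares, and deviations from the genotype means correlated at 0.63 across 14126 endothelial genes in these 2 pairs. Depth limits the lymphatic Psmb10 values, which rest on 1 to 57 UMIs a library, and also the Nlrc5 values of the platelet-marker cluster.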

Other observations

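Several immune types with under 20 cells in at least 1 library were left out of the comparisons, and some of them held the highest heavy chain levels of all named cells. Natural killer-like cells (120 cells) had 3429 ± 504 CPM of H2-K1 and 3503 ± 947 of H2-D1, mature dendritic-like cells (61 cells) 2795 ± 387 and 3395 ± 135 CPM, and nonclassical monocyte-like cells (296 cells) 2653 ± 841 and 4172 ± 824 CPM (mean ± SD over 4 libraries). Mature dendritic-like cells also had 476 ± 85.3 CPM of Psmb8 and 204 ± 30.8 of Tap1, above the 277 ± 20.6 and 162 ± 14.4 CPM of general capillary-like cells. Ciliated-like cells (85 cells), a second airway epithelium, had 365 ± 272 CPM of B2m and 461 ± 194 of H2-K1, and alveolar type 2-like cells (149 cells) had 1305 ± 669 and 1173 ± 161 CPM. These values rest on as few as 5 cells in a library, and no test was made on them.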
